A study of Mus musculus with 18 samples.

Results

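The genes described here are 4 matrix metalloproteinases (Mmp2, Mmp3, Mmp9 and Mmp14), 3 tissue inhibitors of metalloproteinases (Timp1, Timp2 and Timp3) and 3 members of the ADAMTS family (Adamts1, Adamts4 and Adamts9). They were taken by gene symbol from a table of 36172 genes, and each of the 10 genes had 1 row. The table holds translating ribosome affinity purification (TRAP) RNAseq of mouse brain. All 9 animals (6 female, 3 male) carried Cx3cr1-Cre/Ert2 and NuTRAP, a reporter that puts EGFP on a ribosomal protein once Cre is active, and all received tamoxifen on 5 days at about 3 months of age. At 3 to 4 weeks after tamoxifen, the animals received 1 intraperitoneal injection of lipopolysaccharide (LPS, 5 mg/kg), a cell wall component of Gram-negative bacteria, or of phosphate-buffered saline (PBS). Half-brains were collected 24 h later. The males were animal 267, given LPS, and animals 272 and 273, given PBS, so sex was not balanced between treatments. The main test had no term for sex, which was added in an alternative. From each animal, 1 library came from the whole lysate (input) and 1 from ribosomes pulled down with an anti-GFP antibody (positive fraction). This gave 4 groups, with 4 libraries each in Input PBS, Input LPS and Positive PBS and 5 in Positive LPS. Each animal was sampled in both fractions apart from animal 271, whose nearly empty input library (1252 counts) was left out. Cre follows the Cx3cr1 promoter, which is active in microglia and also in border-associated macrophages of the brain's coverings and vessels, so the tag is not specific to microglia.

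Matrix metalloproteinases (MMPs) are zinc proteases that cut collagens, laminins and other components of basement membranes and the spaces between cells, as well as cytokines and receptors. Most are secreted as inactive zymogens and are switched on by other proteases, while Mmp14 stays anchored in the plasma membrane. TIMPs are small secreted proteins that block the active site of MMPs. Timp2 also takes part in the activation of pro-Mmp2 by Mmp14, and Timp3 inhibits several ADAMTS and ADAM proteases as well. ADAMTS proteases are secreted, carry thrombospondin repeats, and in brain are known for cutting the chondroitin sulphate proteoglycans of the perineuronal matrix, among them brevican and versican.

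The 17 libraries used held between 22968939 and 35123345 estimated counts, so that the low levels given below are limited by few reads and the higher ones by the spread between animals. In the positive fraction all 7 microglial markers examined (Cx3cr1, P2ry12, Tmem119, Csf1r, Itgam, Aif1 and C1qa) were higher than in input in PBS animals and in LPS animals. All 7 markers of border macrophages and monocytes were higher as well in PBS animals, and 6 of 7 in LPS animals. Of 7 endothelial markers, 6 were higher in PBS animals and 5 in LPS animals. The 6 fibroblast, 6 oligodendrocyte and 5 choroid plexus markers were all lower in the positive fraction. Neuron and astrocyte markers stayed near their input level. By the threshold given below, 0 of 5 neuron markers differed between fractions in either treatment. Their median log2 value was 0.015 in PBS animals and -0.183 in LPS animals. Of 6 astrocyte markers, 1 was higher and 2 lower in PBS animals (median -0.157). In LPS animals 1 was higher and 3 lower (median -0.318). Ly6g, a neutrophil surface marker, and Acta2, a smooth muscle actin, were listed at 0 in every group.

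**Figure D1:**
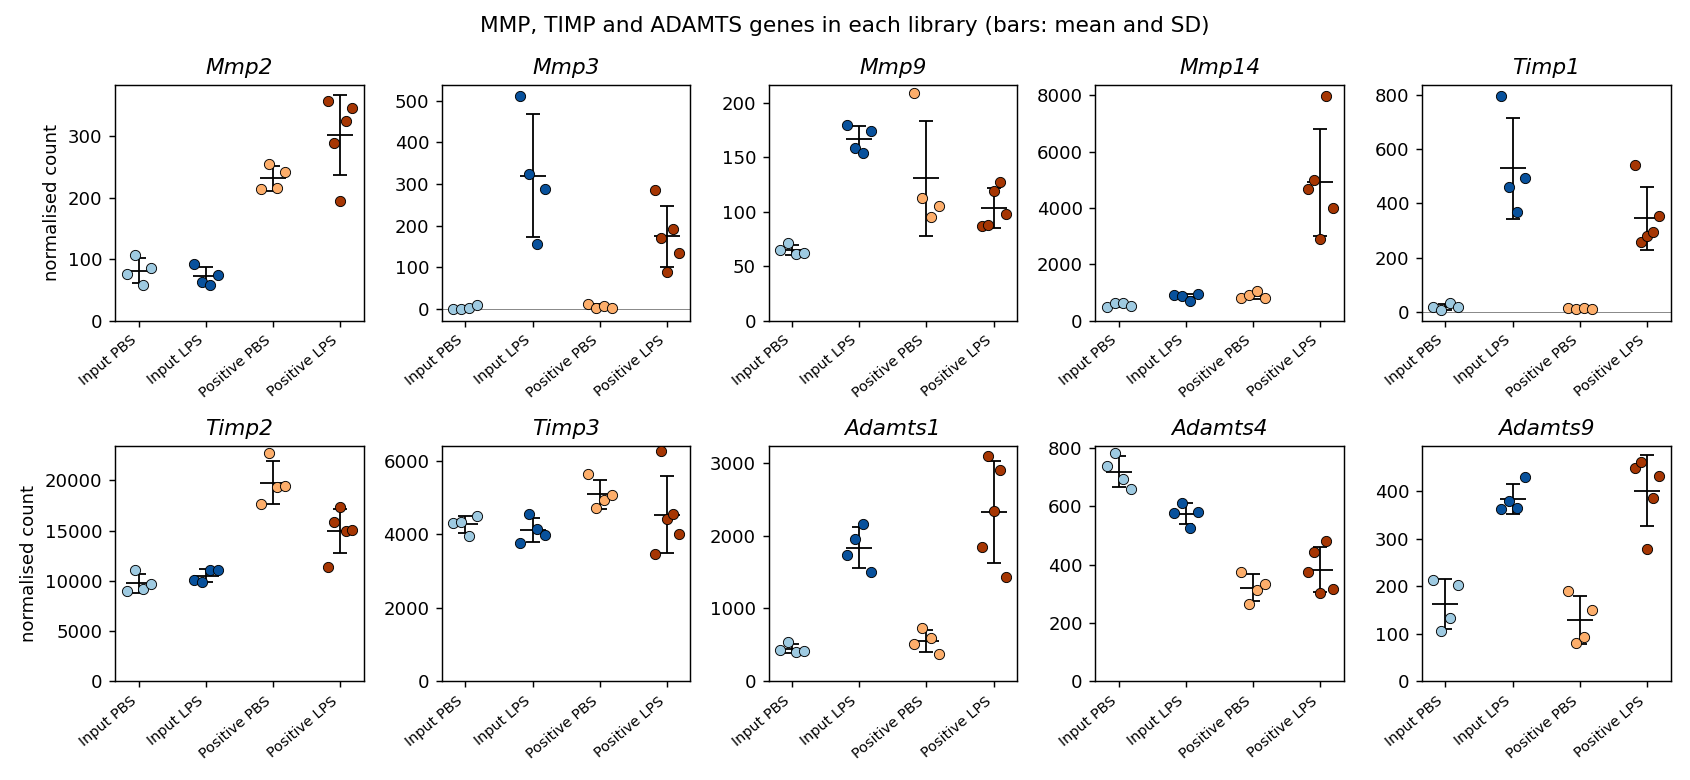
Normalised counts (estimated counts divided by the size factor of the library; linear axis from 0) of each of the 10 genes, with 1 point per library, the horizontal mark at the group mean and the bar spanning 1 SD. Mmp3 and Timp1 lie near 0 in both PBS groups and rise in both LPS groups, whereas Mmp14 reaches 2907 or more only in the 5 Positive LPS libraries.

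Levels were first set side by side per kb of exon, on the scale of normalised counts per kb. In the PBS animals the inhibitors ranked highest. Timp2 averaged 2503 ± 237.7 (SD, n = 4) in Input PBS and 5079 ± 552.2 (n = 4) in Positive PBS, and Timp3 came second with 524.5 ± 27.5 and 624.9 ± 49.3. In both groups the libraries of these 2 genes did not overlap with each other or with the gene next in order, which was Adamts4 in Input PBS (149.4 ± 11.2) and Mmp14 in Positive PBS (148.0 ± 20.6). Mmp14 (94.7) and Adamts1 (84.7) overlapped in Input PBS, as did Mmp2 (24.1) with Timp1 (23.3) and Timp1 with Mmp9 (18.3). In Positive PBS the libraries of Mmp14, Adamts1, Mmp2 and Adamts4 each overlapped with those of the next gene in order, the last of them with Mmp9, while Mmp9 lay apart from Timp1. Mmp3 had the lowest mean in both, at 1.59 ± 2.52 in Input PBS and 3.52 ± 2.90 in Positive PBS, and only in Input PBS did it lie apart from Adamts9, the gene above it.

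After LPS the order was different below Timp2, which stayed at the top with 2700 ± 159.3 per kb in Input LPS and 3831 ± 564.5 (n = 5) in Positive LPS. Timp1 stood at rank 7 in Input PBS and 2 in Input LPS, where its 596.3 ± 209.0 per kb overlapped with Timp3 (505.0 ± 39.7). In the positive fraction Timp1 stood at rank 8 in PBS animals and 5 in LPS animals. Mmp14 was second in Positive LPS with 824.4 ± 318.0 per kb, a level that overlapped with Timp3 (557.3 ± 129.6), and Timp3 in turn overlapped with Adamts1 (438.2 ± 132.3). Mmp2 was last in Input LPS (21.3 ± 4.55) and Adamts9 was last in Positive LPS (26.7 ± 4.97), each overlapping with the gene above. Exon lengths came from the union of annotated exons, which ran from 888 bases for Timp1 to 15048 for Adamts9, so that genes with many annotated transcripts have a lower level per kb. For some genes the annotated locus reached beyond the deposited gene model. Adamts9 ended at base 92943492 against 92901441 in the deposited model, and Mmp9 began at 164940780 against 164948251. Any exons outside the deposited model would lower the level per kb, and their effect on the ranks was not tested.

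The LPS comparison asked how these proteases and inhibitors responded to a systemic challenge in whole tissue and in the positive fraction. LPS raised Mmp3, Timp1, Adamts1 and Adamts9 in both fractions, Mmp14 in the positive fraction, and Mmp9 in input. Timp2 fell slightly in the positive fraction. Mmp2, Timp3 and Adamts4 did not pass the test in either fraction. A gene was called when its adjusted p was under 0.05 and its groups differed, in either direction, by a ratio of more than 5 to 4. In the positive fraction 5 of 10 genes were raised and 1 was lowered, where 19.0% of all 14803 genes tested were raised and 14.9% lowered. In input 5 were raised and 0 lowered, where 7.16% of all genes were raised and 5.26% lowered. The median log2 fold change of the 10 genes was 0.91 in input and 1.01 in the positive fraction, against 0.00 and 0.01 over all genes tested. All 10 genes passed the filter of over 20 normalised counts in each library of some group, but Mmp3 and Timp1 did so through the LPS groups alone. In bulk RNA a change in the number of cells of a type and a change in RNA per cell cannot be told apart.

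**Figure D2:**
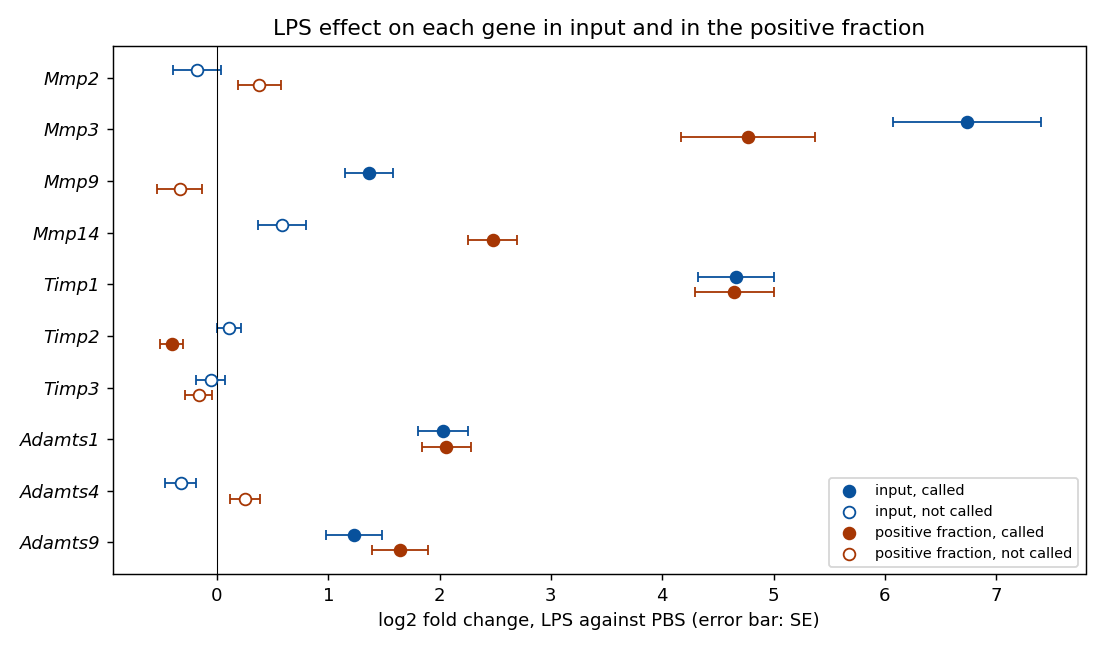
Log2 fold change of LPS over PBS (horizontal axis) with its standard error for the 10 genes, in input (blue) and in the positive fraction (brown), filled where called and open where not. Timp1, Adamts1 and Adamts9 have similar values in both fractions, while Mmp14 (0.585 in input, 2.48 in the positive fraction) and Mmp9 (1.37 and -0.34) do not.

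Mmp3 (stromelysin 1), a secreted protease that cuts proteoglycans, laminin and fibronectin and activates other pro-MMPs, lies at chr9:7445822-7455974 in mm10. In Input PBS its normalised counts were 0, 0, 1.9 and 9.53 in animals 268, 272, 273 and 506, and in Input LPS they were 512.2, 324.4, 156.8 and 288.6 in animals 266, 267, 270 and 507. For the libraries at 0, a count of 0 allows up to 2.73 and 3.10 normalised counts (3 counts in the library, counting error only). In Positive PBS the same animals held 13.1, 1.9, 7.84 and 2.55, and Positive LPS held 286.7, 169.9, 90.0, 192.2 and 135.8 in animals 266, 267, 270, 271 and 507. The LPS groups lay far above the PBS groups in both fractions with no overlap, and animal 266 was the highest and animal 270 the lowest of the LPS animals in both fractions. The log2 fold change was 6.74 ± 0.67 (SE) in input (adjusted p = 1.63e-06) and 4.77 ± 0.60 in the positive fraction (adjusted p = 6.63e-06). With only 12 counts in all of Input PBS and 22 in Positive PBS, the size of these changes is loose. With Input PBS 506 left out the value in input was 8.71, and with Positive PBS 268 left out the value in the positive fraction was 5.44.

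Mmp14 (MT1-MMP), the membrane-anchored collagenase that activates pro-Mmp2, lies at chr14:54431604-54441258. Its normalised counts in Positive PBS were 785.1, 904.2, 1047 and 792.3 in animals 268, 272, 273 and 506, and in Positive LPS they were 4668, 5002, 2907, 7987 and 4002 in animals 266, 267, 270, 271 and 507. Every Positive LPS library exceeded every Positive PBS library, with a log2 fold change of 2.48 ± 0.22 (adjusted p = 9.84e-08), a 5.57-fold rise. In Input PBS the values were 469.4, 626.3, 640.1 and 523.0, and in Input LPS 898.6, 862.0, 688.0 and 938.3. These input groups did not overlap either, but the log2 fold change of 0.585 ± 0.22 did not pass the test (adjusted p = 0.0828). It passed with DESeq2 (adjusted p = 0.0408) and with only the input libraries fitted (adjusted p = 0.00793). It also passed with Positive LPS 270 (0.585, adjusted p = 0.0338) or Positive LPS 271 (0.59, adjusted p = 0.0164) left out. Both libraries lie outside the groups compared and enter this contrast through quantities estimated over all libraries, such as the spread.

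Mmp9 (gelatinase B, chr2:164948251-164955846) cuts type IV collagen and is stored in the granules of neutrophils as well as made by glia. In Input PBS its normalised counts were 64.7, 71.2, 60.8 and 61.9, and in Input LPS 180.1, 159.0, 154.3 and 173.8. The groups were tight and far apart, and the log2 fold change was 1.37 ± 0.22 (adjusted p = 0.000277). The positive libraries of PBS animals held 209.1, 112.3, 95.3 and 105.7 and those of LPS animals 87.0, 88.1, 118.7, 127.0 and 97.6, so the groups overlapped. The log2 fold change there was -0.34 ± 0.20 (adjusted p = 0.200), and the highest value belonged to animal 268 of the PBS group. Without that library it was -0.01.

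Mmp2 (gelatinase A, chr8:92827328-92853420) also cuts type IV collagen. It ranged from 57.0 to 106.3 normalised counts in Input PBS and from 58.3 to 92.7 in Input LPS. Among positive libraries it ranged from 213.4 to 254.1 in PBS animals and from 193.8 to 356.6 in LPS animals. Neither LPS effect passed the test, with log2 fold changes of -0.18 ± 0.22 in input (adjusted p = 0.642) and 0.38 ± 0.19 in the positive fraction (adjusted p = 0.120). With animal 270, the lowest of Positive LPS, left out, the latter was 0.51 and passed (adjusted p = 0.0262).

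Among the inhibitors, Timp1 (chrX:20870166-20874737), a secreted TIMP known as an acute-phase and injury-induced gene, rose by nearly the same amount in both fractions. Its normalised counts in Input PBS were 19.1, 9.29, 35.1 and 19.1, and in Input LPS 796.3, 461.3, 367.8 and 492.6. In Positive PBS they were 16.3, 11.4, 14.4 and 12.7, and in Positive LPS 542.8, 260.0, 279.2, 294.9 and 353.0. The groups did not overlap in either fraction, and animal 266, the highest for Mmp3, was again the highest in both. The log2 fold change was 4.66 ± 0.34 in input (adjusted p = 5.28e-08) and 4.65 ± 0.35 in the positive fraction (adjusted p = 1.64e-08).

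Timp2 (chr11:118301061-118355411) held 8990, 11061, 9226 and 9735 normalised counts in Input PBS and 10049, 9918, 11037 and 11071 in Input LPS. It held 17615, 22760, 19332 and 19439 in Positive PBS and 11385, 15844, 17364, 14960 and 15070 in Positive LPS. The positive fraction groups did not overlap, and Timp2 fell by 0.41 ± 0.10 on the log2 scale (adjusted p = 0.00444). Without animal 266, which held the lowest value of Positive LPS, the log2 fold change was -0.32, under the fold threshold. In input the groups overlapped and the log2 fold change was 0.11 ± 0.11 (adjusted p = 0.561). Timp3 (chr10:86300412-86349505), which binds to the matrix, ranged from 3776 to 4541 in Input LPS and from 3956 to 4487 in Input PBS. Positive libraries held from 3470 to 6271 after LPS and from 4706 to 5646 after PBS, and its log2 fold changes were -0.055 ± 0.13 in input (adjusted p = 0.824) and -0.17 ± 0.12 in the positive fraction (adjusted p = 0.292).

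Adamts1 (chr16:85793828-85803115), a versican-cutting protease with anti-angiogenic activity, held 430.2, 543.8, 403.6 and 418.2 normalised counts in Input PBS and 1733, 1952, 2154 and 1494 in Input LPS. In Positive PBS it held 511.8, 734.8, 596.8 and 379.6, and in Positive LPS 1848, 3098, 2339, 2904 and 1427. LPS and PBS groups did not overlap in either fraction. The log2 fold change was 2.03 ± 0.22 in input (adjusted p = 5.32e-06) and 2.06 ± 0.22 in the positive fraction (adjusted p = 7.78e-07). Adamts9 (chr6:92772699-92901441), which also cuts versican and aggrecan, ranged from 105.2 to 213.3 in Input PBS and from 362.8 to 429.9 in Input LPS. Positive libraries held from 79.9 to 189.5 in PBS animals and from 278.2 to 462.0 in LPS animals, again with no overlap, and its log2 fold changes were 1.23 ± 0.25 in input (adjusted p = 0.00235) and 1.64 ± 0.25 in the positive fraction (adjusted p = 4.25e-05).

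Adamts4 (aggrecanase 1, chr1:171250422-171259922), an enzyme that cuts brevican and aggrecan and is made by mature oligodendrocytes, did not pass the main test in either fraction. Its normalised counts ranged from 658.2 to 782.1 in Input PBS and from 525.4 to 611.1 in Input LPS, without overlap, with a log2 fold change of -0.32 ± 0.14 (adjusted p = 0.134). With only the input libraries fitted it was called as lowered (-0.33, adjusted p = 0.0275). Positive libraries held from 264.6 to 373.5 in PBS animals and from 302.3 to 480.4 in LPS animals, with 0.25 ± 0.14 (adjusted p = 0.144). The summed count of the 6 oligodendrocyte markers had a median of 57995 in Input PBS (51663 to 77201) and 37646 in Input LPS (31730 to 47110), and 4 of these markers were lowered in input. The part of these cells in the Adamts4 values was not tested.

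The upstream sequences of 4 genes raised by LPS in at least one fraction are shown because their start regions differ in letter content. RefSeq windows (GRCm38.p6, the mm10 assembly) were found for 7 of the 10 genes, and the 250 bases before the start site are printed in the direction of the gene, with matches in capitals to an AP-1 element, a TATA box or a GC box, searched on both strands. The letters searched were TGANTCA for the first of these, TATAAA for the next, and GGGCGG for the last.
Mmp3, chr9:7445572-7445821, plus strand: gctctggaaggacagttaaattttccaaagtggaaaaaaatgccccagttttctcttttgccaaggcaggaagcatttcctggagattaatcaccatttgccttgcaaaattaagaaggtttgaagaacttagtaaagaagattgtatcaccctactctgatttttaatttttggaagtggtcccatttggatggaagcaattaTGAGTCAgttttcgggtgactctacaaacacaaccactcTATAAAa
Timp1, chrX:20869916-20870165, plus strand: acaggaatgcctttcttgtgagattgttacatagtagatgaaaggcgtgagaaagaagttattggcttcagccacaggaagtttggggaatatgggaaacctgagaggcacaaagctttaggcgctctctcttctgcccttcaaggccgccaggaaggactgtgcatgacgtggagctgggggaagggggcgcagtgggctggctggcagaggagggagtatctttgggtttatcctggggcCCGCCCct
Mmp14, chr14:54431348-54431597, plus strand: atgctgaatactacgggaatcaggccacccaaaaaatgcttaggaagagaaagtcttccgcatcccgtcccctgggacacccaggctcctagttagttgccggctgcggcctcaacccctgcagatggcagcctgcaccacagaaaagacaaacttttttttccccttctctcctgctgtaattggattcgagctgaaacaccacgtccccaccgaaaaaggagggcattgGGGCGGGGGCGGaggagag
Adamts1, chr16:85803114-85803363, minus strand: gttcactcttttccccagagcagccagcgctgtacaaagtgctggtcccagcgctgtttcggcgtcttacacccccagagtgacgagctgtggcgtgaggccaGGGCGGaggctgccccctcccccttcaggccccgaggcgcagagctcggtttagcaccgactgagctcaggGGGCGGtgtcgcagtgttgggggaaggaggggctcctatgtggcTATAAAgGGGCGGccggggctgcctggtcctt
The Mmp3 window had 37.6% of bases G or C. In it an AP-1 element began 46 bases before the start and a TATA box 7 bases before it. The Timp1 window (54.4% G or C) and the Mmp14 window (55.2%) held GC boxes next to the start, 2 of them adjoining in Mmp14. The Adamts1 window (65.6%) held a TATA box 32 bases before the start and 3 GC boxes, 1 of them just downstream of the TATA box with 1 base between. The unprinted windows of Timp2 (68% G or C) and Timp3 (65.6%), which LPS did not raise, each held a GC box as well. Among all 32851 windows, 6.75% held the AP-1 element, 12.4% the TATA box and 32.7% the GC box. No match to the cyclic AMP response element (TGACGTCA), the STAT GAS element (TTCNNNGAA) or the NF-kB consensus lay in any of the 7 windows, where 1.55%, 7.02% and 3.90% of all windows held them. The Adamts9 window is not printed because its start site lies 42093 bases from that of the deposited gene model.

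Neutrophil and other cell type markers were followed beside these changes. Of 7 microglial markers, 2 were raised and 2 lowered in each fraction. Of 7 endothelial markers, 2 were raised and 2 lowered in input, and 1 was raised and 2 lowered in the positive fraction. Of 6 astrocyte markers, 2 were raised and 1 lowered in input, and 1 was raised and 1 lowered in the positive fraction. Of 5 pericyte and smooth muscle markers tested, 1 was lowered in input and 2 in the positive fraction. Of 8 neutrophil markers, 4 were tested, and 3 of these (S100a8, S100a9 and Ngp) were raised in both fractions. Cxcr2, also tested, was called in neither (log2 fold change -0.19 in input and 0.02 in the positive fraction). Its median was 394.9 in Input PBS, a large part of the summed count there. S100a8 alone had a median of 16.8 in Positive PBS and 382.2 in Positive LPS. The summed normalised count of the list had a median of 624.1 in Input PBS (439.1 to 760.1) and 1313 in Input LPS (702.8 to 1463), and of 169.8 in Positive PBS (139.0 to 298.4) and 723.0 in Positive LPS (412.7 to 979.0). Ly6g was at 0 in all groups and Elane in all but Input PBS. The fibroblast sum had a median of 3213 in Input PBS and 5163 in Input LPS, and of 1293 and 2009 in the positive fraction. In each fraction 2 of 6 fibroblast markers were raised, Dcn and Col3a1 in input and Dcn and Pdgfra in the positive fraction. Dcn alone had a median of 581.1 in Input PBS and 2236 in Input LPS, and of 304.3 and 976.3 in the positive fraction. Col1a1, Col1a2 and Lum were not called in either fraction. The border macrophage and monocyte sum had a median of 5218 in Positive PBS (3185 to 6639) and 2711 in Positive LPS (2358 to 3476), and 4 of 7 of its markers were lowered there. The part of these cells in the changes of Mmp3, Mmp9, Timp1 and the other genes was not tested.

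The next comparison asked which of the genes were enriched in tagged ribosomes. In PBS animals, Mmp2, Mmp9, Mmp14 and Timp2 were higher in the positive fraction than in input and Adamts4 was lower. This was 4 of 10 genes higher and 1 lower, where 21.0% of all genes tested were higher and 18.8% lower. In LPS animals, Mmp2, Mmp14 and Timp2 were higher and Mmp9, Timp1 and Adamts4 were lower. That was 3 of 10 higher and 3 lower, where 27.6% of all genes were higher and 25.8% lower. As given above, all 7 microglial markers and most border macrophage and endothelial markers were also higher in the positive fraction. In PBS animals the median log2 value was 4.23 for microglial, 3.87 for border macrophage and monocyte, and 1.46 for endothelial markers. In LPS animals these medians were 4.05, 2.84 and 0.73. The highest value called among the 10 genes was 1.51 (Mmp2) in PBS animals and 2.54 (Mmp14) in LPS animals. Both lay below the microglial and border macrophage medians. The Mmp2 value lay just above the endothelial median of PBS animals, and the Mmp14 value above that of LPS animals. The part of each cell type was not tested.

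**Figure D3:**
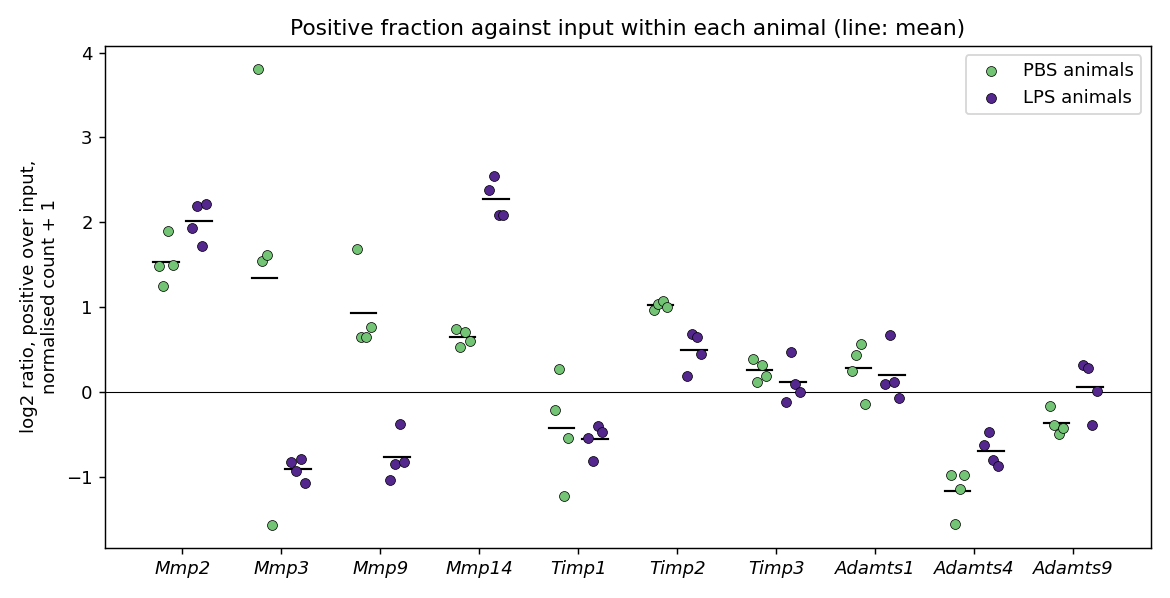
Log2 ratio of positive fraction over input within each animal, from normalised counts plus 1 (vertical axis), for 4 PBS animals (green) and 4 LPS animals (purple), with a line at the mean. For Mmp9 all 4 PBS animals lie above 0 and all 4 LPS animals below it, and for Mmp14 the LPS animals (2.08 to 2.54) lie well above the PBS animals (0.53 to 0.74).

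Among the 10 genes Mmp2 had the highest positive-over-input value that passed in PBS animals, a log2 fold change of 1.51 ± 0.21 (adjusted p = 1.30e-05), and 2.07 ± 0.21 in LPS animals (adjusted p = 1.13e-07). Its log2 ratio within an animal averaged 1.53 ± 0.27 (SD, n = 4) in PBS animals and 2.02 ± 0.24 (n = 4) in LPS animals, with the groups overlapping. Mmp14 was enriched by 0.64 ± 0.22 in PBS animals (adjusted p = 0.0221) and by 2.54 ± 0.22 in LPS animals (adjusted p = 1.56e-08). The PBS value of Mmp14 no longer passed when Input PBS 268 (0.57), Input PBS 506 (0.61) or Positive PBS 273 (0.55) was left out, nor with limma-voom (0.65, adjusted p = 0.0576), with all 18 libraries (0.52, adjusted p = 0.0524) or without animals 506 and 507 (0.66, adjusted p = 0.0794). Timp2 was enriched by 1.02 ± 0.11 in PBS animals (adjusted p = 6.02e-07), with ratios of 0.97, 1.04, 1.07 and 1.00 in the 4 animals, and by 0.51 ± 0.11 in LPS animals (adjusted p = 0.000473), with ratios of 0.18, 0.68, 0.65 and 0.44.

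Mmp9 was higher in the positive fraction in PBS animals (1.02 ± 0.22, adjusted p = 0.00105) and lower in LPS animals (-0.68 ± 0.20, adjusted p = 0.00685). Adamts4 was lower in both, by -1.16 ± 0.14 in PBS animals (adjusted p = 2.78e-06) and -0.58 ± 0.13 in LPS animals (adjusted p = 0.000996), and its ratio was below 0 in all 8 animals. Timp1 was lower in LPS animals at the edge of the threshold (-0.62 ± 0.25, adjusted p = 0.0436), with ratios of -0.55, -0.82, -0.40 and -0.48. That call was lost without any 1 of the Input LPS libraries of animals 266 and 507, the Positive LPS libraries of animals 267, 270, 271 and 507, the Input PBS libraries of animals 268 and 506 and the Positive PBS libraries of animals 273 and 506, with values from -0.65 to -0.35. It was also lost with TMM scaling (adjusted p = 0.0555), with no filter (adjusted p = 0.0511), with only the groups compared (adjusted p = 0.0658) and without animals 506 and 507 (adjusted p = 0.114).

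The remaining genes were not called between fractions. Mmp3 had a log2 difference of -0.88 ± 0.41 in LPS animals (adjusted p = 0.0712), with ratios of -0.83, -0.93, -0.79 and -1.08, and was called as lower with the animal as a replicate block in edgeR (-0.92, adjusted p = 0.00633). It was also called with limma-voom and no block (-0.875, adjusted p = 0.0387), with all 18 libraries (-0.97, adjusted p = 0.0499), and when Positive LPS 266 (-1.12), Input LPS 270 (-1.11) or Input PBS 506 (-0.88) was left out. In PBS animals Mmp3 ratios ran from -1.57 to 3.81, at counts too low to set a direction. Adamts9 had -0.35 ± 0.26 in PBS animals (adjusted p = 0.276) and was called as lower with the replicate block (-0.365, adjusted p = 0.0358), with ratios between -0.50 and -0.17. In LPS animals its value was 0.06 ± 0.23 (adjusted p = 0.828). Adamts1 had 0.31 ± 0.22 in PBS animals (adjusted p = 0.262) and 0.34 ± 0.20 in LPS animals (adjusted p = 0.151), the latter called with Positive LPS 507 left out (0.48). Timp3 had 0.25 ± 0.13 in PBS animals (adjusted p = 0.117) and 0.14 ± 0.12 in LPS animals (adjusted p = 0.326).

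Whether LPS acted alike on a gene in both fractions was tested directly with an interaction term. By its signed log2 value, the effect was higher in the positive fraction for Mmp14 and lower for Mmp9 and Timp2. That is 1 of 10 genes higher and 2 lower, where 5.46% of all genes tested were higher and 1.42% lower. Timp2 itself fell in the positive fraction (-0.41) and was not called in input (0.11). For Mmp14 the LPS effect was larger by 1.89 ± 0.30 on the log2 scale (adjusted p = 0.000753). For Mmp9 the difference was -1.70 ± 0.30 (adjusted p = 0.00177), a rise in input against no call in the positive fraction. With Positive PBS 268 left out the Mmp9 difference was -1.38 and was still called. In both genes the ratios of the PBS and LPS animals did not overlap. The Timp2 difference of -0.52 ± 0.15 lay at the edge of the threshold (adjusted p = 0.0466). It was lost without any 1 of 13 libraries, which were Input PBS 268, 273 and 506, Input LPS 266, 267, 270 and 507, Positive PBS 272, 273 and 506, and Positive LPS 267, 271 and 507, with values from -0.545 to -0.44. It was also lost with no filter (adjusted p = 0.0603), with all 18 libraries (adjusted p = 0.223) and without animals 506 and 507 (adjusted p = 0.255). The ratios of the PBS animals (0.97 to 1.07) and LPS animals (0.18 to 0.68) did not overlap for Timp2 either.

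For the other 7 genes no difference between fractions passed the test. Mmp3 had -1.97 ± 1.04 (adjusted p = 0.319), Mmp2 0.56 ± 0.29 (adjusted p = 0.304) and Adamts4 0.58 ± 0.20 (adjusted p = 0.0874). The Adamts4 ratios ran from -1.56 to -0.98 in PBS animals and from -0.88 to -0.47 in LPS animals, without overlap. The Adamts4 difference passed with DESeq2 (0.58, adjusted p = 0.0448) and with Positive LPS 270 left out (0.66, adjusted p = 0.0326). Adamts9 had 0.41 ± 0.34 (adjusted p = 0.573) and Timp3 -0.11 ± 0.18 (adjusted p = 0.800). Timp1 (-0.016, adjusted p = 0.995) and Adamts1 (0.03, adjusted p = 0.972) had values near 0, whose sign changed with the scaling or the libraries used.

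The make-up of each family was described as shares of the normalised counts per kb. After LPS the shares of Mmp3, Mmp9, Mmp14 and Adamts4 did not overlap between input and the positive fraction. Those of Mmp2, all 3 TIMPs, Adamts1 and Adamts9 did. Among the 4 MMPs, Mmp14 took 68.2% ± 4.87 (SD, n = 4) in Input PBS and 37.7% ± 6.2 in Input LPS, where Mmp3 took 44.0% ± 9.36 against 1.16% ± 1.85 in Input PBS. Among positive libraries Mmp14 took 57.5% ± 5.96 in PBS animals and 78.5% ± 4.44 (n = 5) in LPS animals, where Mmp3 took 9.43% ± 3.14 and Mmp2 took 9.0% ± 2.06 against 26.8% ± 3.41 in PBS animals. Among the TIMPs, Timp2 held the majority throughout, from 71.1% ± 4.29 in Input LPS to 88.7% ± 1.81 in Positive PBS. Timp1 took 0.782% ± 0.437 in Input PBS and 15.6% ± 5.02 in Input LPS, and 0.274% ± 0.0635 and 8.49% ± 4.02 in the positive fraction. Among the 3 ADAMTS genes, Adamts4 led in Input PBS with 61.0% ± 1.59 and Adamts1 led in the other groups, with 70.2% ± 4.10 in Input LPS, 57.5% ± 9.96 in Positive PBS and 79.8% ± 4.38 in Positive LPS. These shares are descriptions and were not tested.

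**Figure D4:**
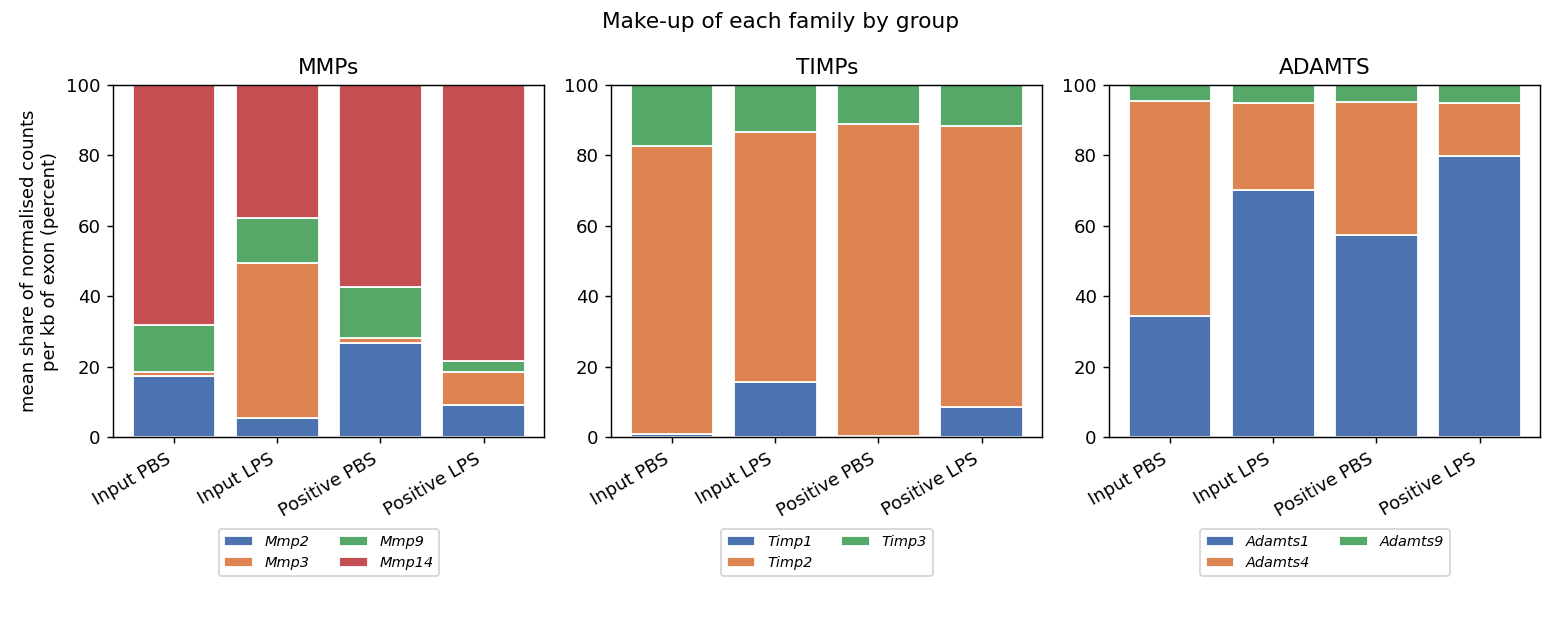
Mean share of each gene in the summed normalised counts per kb of its family (vertical axis, percent, from 0 to 100) in the 4 groups, for MMPs, TIMPs and ADAMTS genes. The MMP share held by Mmp3 in Input LPS (44.0%) is larger than in Positive LPS (9.43%), where Mmp14 takes 78.5%.

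A list of 71 further genes of the same system was described alongside, of which 55 were tested. In the positive fraction 15 of 55 were raised (27.3%) and 16 lowered (29.1%), and in input 14 were raised (25.5%) and 4 lowered (7.27%), next to the shares of all genes given above. The LPS effect was called as different between fractions for 1 of 55, Mmp19, whose effect was larger in the positive fraction by 1.27 ± 0.22 (adjusted p = 0.00169).

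Of the 10 other MMPs tested, 3 were raised and 5 lowered in the positive fraction, and 3 raised and 2 lowered in input. The raised genes were the same in both. Mmp8, the neutrophil collagenase, had log2 fold changes of 2.07 ± 0.63 (input) and 3.23 ± 0.71 (positive). Mmp12, the macrophage elastase, had 4.17 ± 0.57 and 2.00 ± 0.49 in the same order. Mmp19 had 0.95 ± 0.16 and 2.22 ± 0.16. The lowered genes lie outside the naming rule and were picked after their values were seen. In the positive fraction they were Mmp28 (-1.56), Mmp15 (-1.14), Mmp11 (-0.71), Mmp17 (-0.67) and Mmp24 (-0.39), and in input Mmp15 (-0.78) and Mmp17 (-0.61).

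Of 13 other ADAMTS genes tested, 1 was raised and 1 lowered in the positive fraction, and 2 were raised in input. Adamts14, a procollagen-processing protease, was raised by 2.80 ± 0.35 in input and 2.25 ± 0.37 in the positive fraction. Adamts5, an aggrecanase, was raised by 0.72 ± 0.16 in input, and Adamts8 fell by 0.97 ± 0.19 in the positive fraction. Of 4 other inhibitors and clearance genes, A2m, which encodes the broad protease trap alpha-2-macroglobulin, was raised by 1.59 ± 0.19 in input and 1.43 ± 0.19 in the positive fraction, and Reck, a membrane-bound MMP inhibitor, fell by 0.94 ± 0.23 in the positive fraction.

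The plasminogen system, which generates plasmin and thereby activates several pro-MMPs, had 6 genes tested, with 3 raised and 2 lowered in the positive fraction and 3 raised in input. Plaur, the urokinase receptor, was raised by 2.29 ± 0.32 in input and 2.66 ± 0.29 in the positive fraction. Plat, tissue plasminogen activator, was raised by 0.87 ± 0.13 and 1.03 ± 0.12. Plau, urokinase, fell by 1.47 ± 0.21 in the positive fraction.

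Of 6 activators and docking partners, 3 were raised in both fractions and 2 lowered in the positive fraction. Lcn2, whose product binds Mmp9, was raised by 5.48 ± 0.32 in input and 6.30 ± 0.33 in the positive fraction. Cd44, a hyaluronan receptor that docks Mmp9 and Mmp14 at the cell surface, was raised by 1.17 ± 0.24 and 2.07 ± 0.24. Furin, the convertase that activates pro-Mmp14, was raised by 0.40 ± 0.12 and 0.73 ± 0.12.

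Of 16 substrates in the matrix and at junctions, 4 were raised and 5 lowered in the positive fraction, and 2 were raised and 2 lowered in input. Col4a1, a basement membrane collagen chain, was raised by 1.04 ± 0.19 in input and 1.17 ± 0.18 in the positive fraction, and Col4a2 by 0.86 ± 0.22 in the latter. Ncan, the brain proteoglycan neurocan, fell by 0.56 ± 0.09 on the log2 scale in input and by 0.93 ± 0.09 among tagged ribosomes. Cldn5, an endothelial tight junction protein, was raised by 1.34 ± 0.19 in input and by 0.51 ± 0.17 in the positive fraction.

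**Figure D5:**
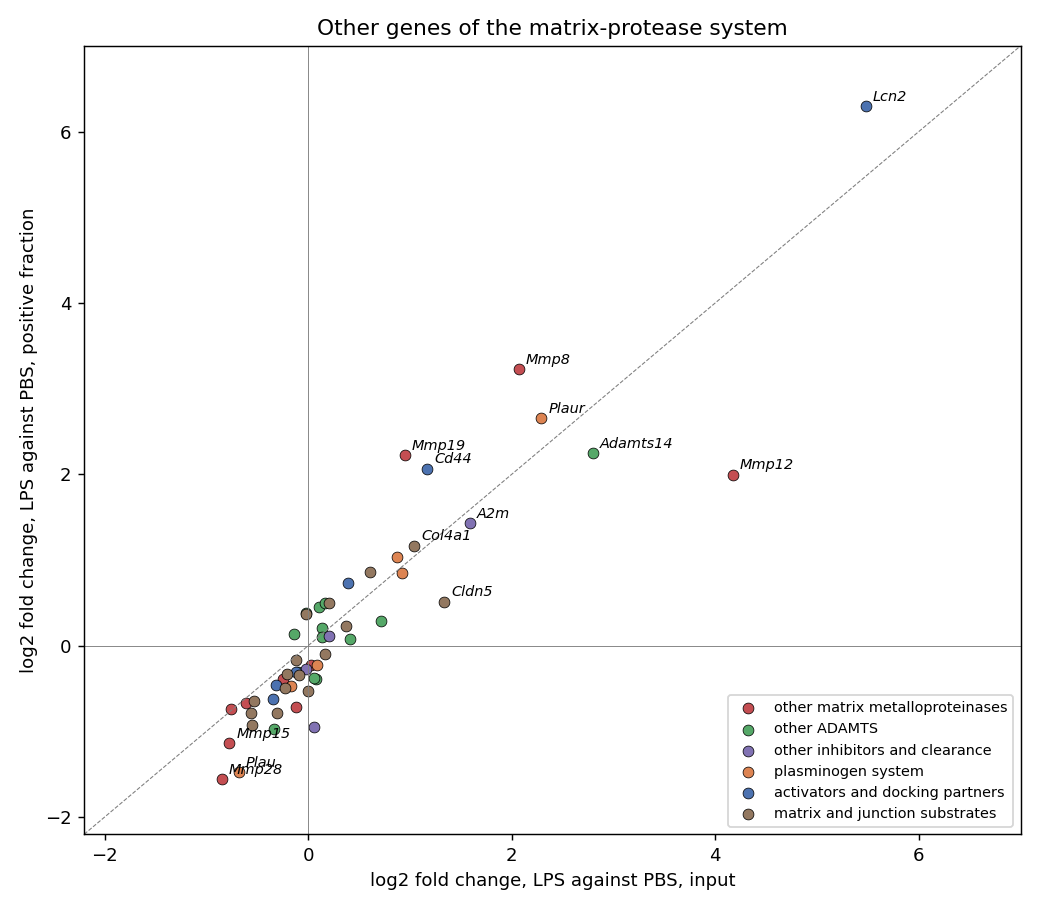
Log2 fold change of LPS over PBS in input (horizontal axis) and in the positive fraction (vertical axis) for the 55 tested genes of the wider list, coloured by role, with the dashed line where both are equal and names for called genes with a change over 1.1 in either fraction. Lcn2 lies farthest out (5.48 and 6.30), and Mmp12 (4.17 and 2.00) lies below the line while Mmp19 (0.95 and 2.22) lies above it.

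The genes whose pattern over the 17 libraries was closest to each of the 10 were found by the root mean square difference of log2 values (normalised count plus 1, centred per gene) among 12612 genes with a mean of at least 100. For Timp1 these were Steap4 (0.523) and Serpina3n (0.571). For Mmp3 the values were larger, at 0.993 for Steap4 and 1.17 for Timp1. Mmp14 was closest to Dtx2 (0.237) and Slc31a2 (0.252), and both had their highest mean level in Positive LPS, at 2466 and 3038 normalised counts. Adamts1 was closest to Ifit1 (0.279) and Emp1 (0.333), and Adamts9 to Slc39a14 (0.330) and Glipr2 (0.335). Timp2 was closest to Cmip (0.135) and Rhob (0.138), Timp3 to Gcc1 (0.115) and Gins3 (0.129), and Adamts4 to Nmrk1 (0.176) and Enpp4 (0.190). Mmp2 was closest to 2210016F16Rik (0.251) and Frmd4b (0.258), and Mmp9 to Eda (0.392) and Heca (0.398). These values describe likeness over libraries that share animals and were not tested.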

How the data were processed

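Polyadenylated RNA from the input and positive TRAP fractions was sequenced by the authors from directional libraries. Reads were trimmed, aligned by strand to mm10 in Strand NGS and assigned to gene models, and the authors deposited estimated counts per gene, of which 78.4% of nonzero values are not whole. Per the labels, DESeq is among the tools used. The authors also deposited log2 values, centred on the median of the Input PBS libraries, which were not used here. All columns were matched to a library by animal number and fraction.

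Estimated counts were rounded and divided by size factors (median of ratios over 15766 genes, 0.766 to 1.32). A gene was tested if all libraries of some group exceeded 20 normalised counts, which follows the study's filter and kept 14803 genes. The test was the edgeR 4.0.16 quasi-likelihood F-test in R 4.3.3, with 1 mean per group, 13 residual degrees of freedom and 5 contrasts. The p-values were adjusted by the Benjamini-Hochberg method over all genes tested, and all adjusted p-values in the text are edgeR's unless another tool is named. Standard errors were taken as the log2 fold change over the square root of F. The study's analysis of variance was replaced by this count model because the values are counts. Input 271, nearly empty, was not used.

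Libraries from 1 animal share a number. Their deviations from the group means correlated across genes at 0.16 to 0.519 in all 8 animals with both libraries, so the animal was used as a replicate block in an alternative. Other alternatives were DESeq2 1.42.0, limma-voom (limma 3.58.1), TMM scaling, no filter, edgeR's own filter, sex as a term, all 18 libraries, leaving out animals 506 and 507, fitting only the groups compared, and leaving out each library. The procedure was tested on simulated data.

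Genes are named by a rule. All 10 genes are described in every comparison, genes of the wider list are named where called in an LPS comparison, up to the 3 largest changes per role, and the 2 most alike genes are given for each of the 10. One result under this rule is not reported here. The genes, lists and alternatives were chosen with earlier results of these data known. Gene positions are those of the deposited table (mm10), exon lengths are from GENCODE vM21, and promoter windows are from RefSeq (GRCm38.p6). Reads carry no molecular identifiers, so limits from counts cover counting error only.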

Additional observations from a re-analysis of the deposited data

Results flagged for a closer look

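In Positive PBS, the library of animal 268 held 209.1 normalised counts of Mmp9, with the next highest library at 112.3, and the gap took 0.851 of the group's range, over Dixon's critical value for 4 samples. It was the 1 such library among 40 groups of a gene examined, and chance alone gives about 1 in 20. The same animal's input library (64.7) lay within its group.

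For 3 of the 10 genes the interaction test called a different LPS effect in the positive fraction than in input. The difference, positive fraction minus input on the log2 scale, was 1.89 for Mmp14, -1.70 for Mmp9 and -0.52 for Timp2. For Mmp9 the library of animal 268 bears on the value, which was -1.38 without it. The median neutrophil marker sum was higher after LPS in both fractions, while Cxcr2 on that list was called in neither. The part of neutrophils in the Mmp9 difference was not tested.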

How the results depend on the processing

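Each of 50 results (10 genes in 5 comparisons) was recomputed under up to 27 alternatives, and 35 kept their direction and their side of the threshold in all that were run. A call was lost under at least 1 alternative for 4 results (the LPS effect on Timp2 in the positive fraction and its difference between fractions, and the fraction difference of Mmp14 in PBS animals and of Timp1 in LPS animals), and gained for 7. The replicate block, a paired analysis by animal, fitted in edgeR for contrasts within animals and in limma-voom for LPS effects, gave calls for Mmp3 in LPS animals (-0.92) and Adamts9 in PBS animals (-0.365) and changed no other call among the 10 genes. Of these, Mmp3 was also called by limma-voom with no block (-0.875). Sign changes were limited to 4 values near 0. The Timp1 difference between fractions (-0.016) was 0.004 with TMM scaling, 0.023 with all 18 libraries, and from -0.39 to 0.25 when 1 library was left out. The Adamts1 difference (0.03) was -0.081 with the replicate block, -0.035 without animals 506 and 507, and from -0.11 to 0.20 when 1 library was left out. Adamts9 between fractions in LPS animals (0.06) was -0.027 with all 18 libraries, and Timp3 (0.14) ran from -0.001 to 0.23 when 1 library was left out. Over all genes, the count with a different LPS effect between fractions was 1018, 1915 with the replicate block and 323 without animals 506 and 507, where the count called in input was 1083 against 1839. The cause of these differences was not tested. Animals 506 and 507 carry numbers apart from the rest, and what that reflects is not given in the sources used here. The LPS effect on Mmp3 in input (6.74) was 7.57 with limma-voom, 7.59 with limma-voom and the replicate block, and 8.76 without animals 506 and 507, and stayed called. Depth limits Mmp3 and Timp1 in PBS animals, whose fold changes rest on few counts.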
